A study of Mus musculus with 4 samples.

Results

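Gata4 ChIP-seq peaks were examined at 8 regulators and effectors of the epithelial-mesenchymal transition, Snai1, Snai2, Twist1, Twist2, Zeb1, Zeb2, Cdh2 and Vim. Every peak within 50 kb of one of these genes was taken, which includes each peak that the authors' own annotation gives to a member within 5 kb. There were 32 such peaks among the 20410 of WT Flk1(+) cells and 27 among the 22733 of DKO Flk1(+) cells, and 29 and 14 of them lay within 5 kb.

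The series holds 4 libraries, 1 for each condition. All cells were mouse ES cells of the J1 line (129 background) or derived from them, and all carried Gata4GR, Gata4 joined to the hormone-binding part of the human glucocorticoid receptor and expressed from the CAG promoter, which is held inactive until dexamethasone (Dex) is added. WT Flk1(+) and DKO Flk1(+) cells were mesoderm progenitors differentiated on OP9 stroma cells to day 4.5, given 100 nM Dex for 3 hours and sorted by magnetic beads for Flk1, and each was labelled as 1 clone (J1G4.2 and 16G4.3). DKO cells lack the de novo DNA methyltransferases (Dnmt3a-/-Dnmt3b-/-). WT ES and DKO ES were undifferentiated cells of the same genotypes without Dex, and served as the background of the peak calls. The same mixture of anti-Gata4 antibodies was used in every library, and it does not separate Gata4GR from endogenous Gata4.

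In the epithelial-mesenchymal transition, cells lose junctions and polarity and become motile, as epiblast cells do when they leave the primitive streak as mesoderm. The Snail, Twist and Zeb families are transcription factors that repress epithelial genes such as E-cadherin. Snail and Zeb proteins bind the E-box CACCTG, while N-cadherin (Cdh2) and vimentin (Vim) are structural proteins that mark the mesenchymal state.

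Each peak is given by its position, by its height, which is the maximum of the authors' read density profile in the Flk1(+) library, and by the height of the ES library of the same genotype at that place. Heights were at least 5 and enrichment over ES at least 3 in both lists, with an ES height below 1 counted as 1. Peaks are ranked by the authors' q-value, with rank 1 the best. With 1 library per condition, no difference between WT and DKO can be set against the spread between replicates, so values are given without tests. The lists hold no read totals, but the paper states more mapped reads for DKO Flk1(+) than for WT Flk1(+). The part of this difference in depth in heights, ranks and peak numbers was not tested. The lists also give no value for a place where no peak was called. A peak absent from 1 list may therefore have a signal just under the calling limits there. The lists hold no expression values either, so the Flk1(+) label could not be checked against marker genes.

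Sequences at the centre of peaks are shown for the highest peak of a locus outside untranslated regions, for the best-scoring Zeb2 peak found in the WT list only or in the DKO list only, and for 3 further peaks chosen after their values were seen, because they hold the GATA motif closest to a peak position at Twist2 and at Zeb2 or the highest peak in Vim. They come from the sequence deposited with each peak, which equals mm9, and are the forward strand of the genome, with untranslated bases left off the Twist1, Trdmt1 and Vim sequences. Capitals mark the GATA motif (AGATAA or TGATAA, written WGATAA, on either strand) and the E-box CACCTG on either strand.
Snai1 start site (chr2:167363510-167363710): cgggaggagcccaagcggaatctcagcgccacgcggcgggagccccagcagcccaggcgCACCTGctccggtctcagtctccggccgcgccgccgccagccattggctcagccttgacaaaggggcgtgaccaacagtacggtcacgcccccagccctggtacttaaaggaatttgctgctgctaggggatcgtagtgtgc
Twist1 first exon (chr12:34642843-34642965): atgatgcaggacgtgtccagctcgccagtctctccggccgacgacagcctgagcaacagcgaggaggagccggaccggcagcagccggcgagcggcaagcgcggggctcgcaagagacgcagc
Twist2 intron 1 (chr1:93720057-93720257): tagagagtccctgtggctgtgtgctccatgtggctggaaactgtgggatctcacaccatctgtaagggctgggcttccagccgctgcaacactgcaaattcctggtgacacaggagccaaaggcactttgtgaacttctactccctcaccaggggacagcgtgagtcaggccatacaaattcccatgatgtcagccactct
Zeb2 intron 2, highest (chr2:44922879-44923079): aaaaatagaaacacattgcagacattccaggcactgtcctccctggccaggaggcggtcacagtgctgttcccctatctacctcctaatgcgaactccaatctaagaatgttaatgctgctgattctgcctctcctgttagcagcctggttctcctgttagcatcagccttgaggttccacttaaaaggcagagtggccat
Vim locus, Trdmt1 exon (chr2:13466156-13466259): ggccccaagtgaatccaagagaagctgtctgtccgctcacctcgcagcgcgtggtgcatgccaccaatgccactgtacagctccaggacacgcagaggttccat
Zeb2 intron 2, WT list only (chr2:44893988-44894188): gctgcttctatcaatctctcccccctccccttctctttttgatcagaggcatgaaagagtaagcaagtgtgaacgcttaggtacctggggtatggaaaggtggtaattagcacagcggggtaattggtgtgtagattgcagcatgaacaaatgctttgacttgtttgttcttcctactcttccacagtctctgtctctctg
Zeb2 intron 3, DKO list only (chr2:44875493-44875693): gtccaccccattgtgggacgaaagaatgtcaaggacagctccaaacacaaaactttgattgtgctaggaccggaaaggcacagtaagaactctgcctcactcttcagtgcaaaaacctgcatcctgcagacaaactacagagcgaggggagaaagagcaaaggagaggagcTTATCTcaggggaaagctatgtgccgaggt
Twist2 downstream (chr1:93758311-93758411): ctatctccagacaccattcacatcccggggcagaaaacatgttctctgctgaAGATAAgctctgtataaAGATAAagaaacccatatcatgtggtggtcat
Zeb2 intron 2, paired GATA (chr2:44896629-44896729): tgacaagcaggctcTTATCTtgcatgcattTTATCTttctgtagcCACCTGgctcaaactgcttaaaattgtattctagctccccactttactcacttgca
Vim first exon (chr2:13496098-13496226): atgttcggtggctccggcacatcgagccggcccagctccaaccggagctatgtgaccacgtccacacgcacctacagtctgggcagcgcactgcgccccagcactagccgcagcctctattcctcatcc
Of these, the Twist2 downstream and the paired-GATA Zeb2 sequences each show 2 GATA motifs, the DKO-only Zeb2 sequence shows 1, and the Snai1 sequence shows an E-box. The central sequence of the highest Twist2 and Zeb2 peaks and the first-exon sequences of Twist1 and Vim hold neither WGATAA nor CACCTG. No sequence is shown for Zeb1 and Cdh2, and Snai2 has no peak. All coordinates are mm9, with genes from GENCODE vM1.

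In the WT list, 6 of the 8 members (75.0%) had a peak within 5 kb, namely Snai1, Twist2, Zeb1, Zeb2, Cdh2 and Vim, where 39.4% of the 22217 protein-coding genes had one. In the DKO list the number was also 6 of 8, against 49.1% of protein-coding genes, but Twist1 was among them and Zeb1 was not. Within 50 kb, 6 members had a WT peak and 7 a DKO peak, with backgrounds of 67.1% and 70.4%. Of protein-coding genes of 100 kb or longer, which include Zeb1, Zeb2 and Cdh2, 68.4% had a WT peak and 67.6% a DKO peak within 5 kb. The count of members is thus above the share of all genes at 5 kb and close to it at 50 kb. The share of genes of 100 kb or longer is no background for Snai1, Snai2, Twist1, Twist2 and Vim, which are shorter. Gene length was not matched, and its part in the count was not tested. When the distance was taken from the start site alone, 3 members (Zeb1, Cdh2 and Vim) had a WT peak within 5 kb and 4 (Snai1, Twist1, Cdh2 and Vim) a DKO peak, where 27.9% and 40.0% of protein-coding genes had one.

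**Figure D1:**
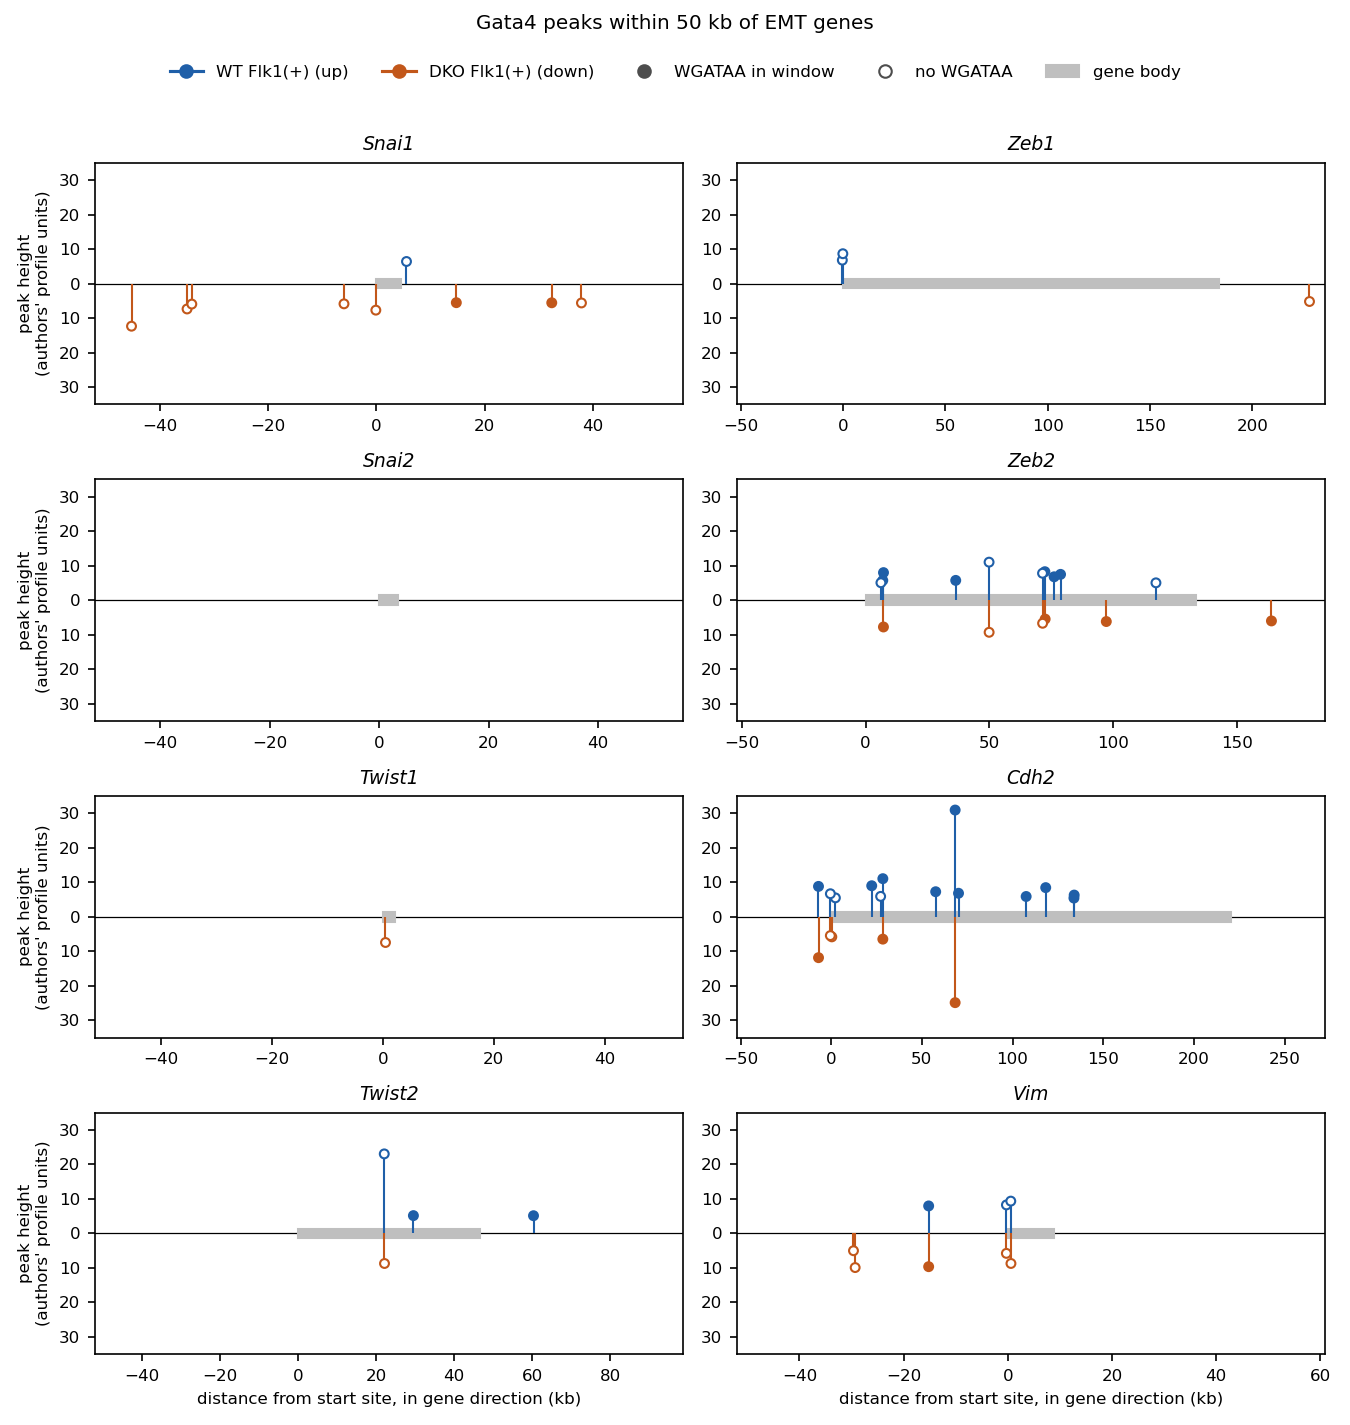
Peaks at the 8 loci, by distance from the start site in the direction of the gene (kb). Height of the authors' profile is drawn upwards for WT Flk1(+) and downwards for DKO Flk1(+), the grey bar is the gene, and filled points hold WGATAA within 250 bp of the peak position. Cdh2 and Zeb2 have the most WT peaks (13 and 10), Snai1 the most DKO peaks (8), and Snai2 has none.

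Snai1, the Snail zinc finger factor required for mesoderm cells to leave the epiblast, lies at chr2:167363695-167368314 on the forward strand. It had 1 WT peak, 890 bp downstream of its end, with a height of 6.49 over 1.87 in ES and rank 19199. The DKO list had 8 peaks within 50 kb and none of them was shared, a peak being shared when a peak of the other list lies within 500 bp. Of all peaks, 45.1% in DKO and 45.6% in WT were shared, which is the background for such counts at each member. Of protein-coding genes under 100 kb, 9.08% had as many DKO peaks, and 3.54% had at least 7 more DKO than WT peaks.

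The DKO peak at Snai1 itself lay 85 bp before the start site, with a height of 7.69 over 1.77 in ES, 54 CpGs and no WGATAA in its window, which covers 250 bp on either side of the peak position. Its central sequence is the CpG-rich one shown above, with 1 E-box. A further DKO peak 5965 bp before the start site had a height of 5.86 and 2 E-boxes. Only 2 of the 8 DKO peaks held WGATAA, and both were low peaks downstream, 10158 and 27781 bp from the end of Snai1, with heights of 5.52 and 5.55.

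The highest DKO peak of the Snai1 locus, 12.3 over 2.12 in ES and with 47 CpGs, lay 45201 bp before Snai1 in the 5′ UTR of the neighbouring gene Rnf114. Another 2 peaks were also within Rnf114 (7.35 and 5.93), and the farthest peak downstream (5.60) was nearest to Ube2v1. Snai1 was the nearest protein-coding gene for 4 of the 8 peaks, and a single peak in each list lay within 5 kb of the gene.

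Snai2, the Slug factor that acts in neural crest and other migrating cells, lies at chr16:14705945-14709488 on the forward strand. No peak of either list was within 50 kb, and the nearest was 332921 bp away in WT and 388603 bp away in DKO. The 50-kb window held 171 WGATAA matches, none of which was in a peak.

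Twist1, a basic helix-loop-helix factor of head mesenchyme and limb mesoderm, is a short gene at chr12:34642536-34644682 on the forward strand. No WT peak was found within 50 kb, the nearest being 191695 bp away. The only DKO peak was in the coding exon, 329 bp after the start site, with a height of 7.17 over 2.31 in ES. Its enrichment of 3.10 was just above the calling limit and it ranked 20997 in its list. The window held 74 CpGs, the most of any member peak, and neither WGATAA nor CACCTG.

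Twist2, a close relative of Twist1 expressed in dermis and other mesenchyme, lies at chr1:93698038-93744605 on the forward strand. Its main peak was in intron 1, 22119 bp after the start site, in both lists. The WT height was 23.0 over 2.18 in ES, rank 860, and the DKO height 8.65 over 1.97 in ES, rank 10622. The positions of the peaks in the lists were 5 bp apart.

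The DKO to WT ratio of height at this Twist2 site was 0.376, the lowest of the shared member sites, and 6.34% of all 8489 shared sites had a lower one. Among the 780 shared sites with a WT height within 20% of it, the median ratio was 0.505 and 25.8% were lower still. The ES heights at the site differed less, with a DKO to WT ratio of 0.901. The window held 2 CpGs and no WGATAA, nor the wider motif that also allows AGATAG and TGATAG. Of WT peaks more than 1 kb from a start site with a rank in the first 10% of the list, 8.05% lacked WGATAA and 4.05% lacked the wider motif.

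The other 2 WT peaks of Twist2 were low and in the WT list only. The one in intron 1, 29582 bp from the start site, had a height of 5.14 and 1 WGATAA. The other, 13756 bp downstream of the gene, had a height of 5.11 and 2 WGATAA, the nearer of which was centred 4.5 bp from the peak position, as in the sequence above. For 3 WT peaks, 28.2% of protein-coding genes under 100 kb had as many.

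Zeb1, a zinc finger and homeodomain repressor of E-cadherin, spans chr18:5591858-5775465 on the forward strand. Both WT peaks lay before its start site, at -438 and -193 bp, in a place where the annotation also puts intron 1 of Gm10125. Their heights were 6.80 over 2.23 in ES and 8.67 over 2.77 in ES. The enrichments of 3.05 and 3.13 were close to the limit, the ranks were 19991 and 18731, and the windows overlap, since the positions are 245 bp apart. They held 39 and 44 CpGs, 2 E-boxes each, which the overlap may count in both, and no WGATAA.

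In the DKO list no peak was called at the Zeb1 start site. The only DKO peak within 50 kb was 44353 bp downstream of the gene, with a height of 5.16 over 1.67 in ES, rank 22632 and no WGATAA. The Zeb1 window held 474 WGATAA matches, and none was in a peak of either list.

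Zeb2, the other member of that family, which is expressed in neural crest and in blood and vessel progenitors, spans chr2:44839154-44972915 on the reverse strand. It had 10 WT peaks, all within the gene, and 6 DKO peaks, 5 within the gene. As many WT peaks were found at 4.54% of protein-coding genes of 100 kb or longer, and as many DKO peaks at 16.7%.

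The highest Zeb2 peak was in intron 2, 49936 bp after the start site, with a height of 11.0 over 3.33 in ES for WT and 9.30 over 1.82 in ES for DKO. It held 7 CpGs and no WGATAA, but 1 match to the wider motif that also allows AGATAG and TGATAG, which is in the sequence shown above. Next to each other in intron 2 were shared sites at 72490 and 71544 bp. The former had heights of 8.26 in WT and 5.47 in DKO with 2 WGATAA, and the latter 7.81 and 6.69 with none.

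The CpG-rich site of Zeb2 was 7261 bp after its start site, in an exon annotated as 5′ UTR. Its height was 7.99 in WT and 7.76 in DKO, a ratio of 0.971, with 48 and 45 CpGs and 1 WGATAA. A second WT peak 287 bp away (5.72, with 33 CpGs) matched the same DKO peak, and a WT peak further along (5.06, with 18 CpGs) had no partner. These peaks are inside the annotated span of Zeb2. The WT peaks with 33 and 18 CpGs lie outside the transcript with the longest coding sequence, in an intron of another transcript. No peak of either list lay within 1 kb of the start site used here, and distances to other annotated starts of Zeb2 were not measured.

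Another 4 WT peaks in introns of Zeb2 were in the WT list only, with heights of 5.03 to 7.49. The best-scoring, at 78827 bp, had a height of 7.49 and rank 5917, and its single WGATAA was 217.5 bp from the peak position, outside the sequence shown. The one at 76236 bp (6.78) had 2 WGATAA, the nearer 17.5 bp from its position, and an E-box beside them. In the DKO list only were a peak in intron 3 with 4 WGATAA (6.19 over 1.57 in ES) and a peak 30314 bp downstream (6.01), which was nearer to Gtdc1.

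Cdh2, which encodes the N-cadherin that replaces E-cadherin in mesenchymal cells, spans chr18:16747386-16967755 on the reverse strand. It had the most WT peaks, 13, of which 12 were within 5 kb, and 5 DKO peaks. Only 1.63% of protein-coding genes of 100 kb or longer had as many WT peaks, while 24.4% had as many DKO peaks. At 1.13% of these genes there were at least 8 more WT than DKO peaks.

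The highest member peak in either list was in intron 2 of Cdh2, 68364 bp after the start site. The WT height was 30.9 over 3.34 in ES, rank 707, and the DKO height was 24.9 over 0.789 in ES, rank 42. The positions were 6 bp apart and the window held 5 CpGs and 1 WGATAA. The ratio of height was 0.805, near the median of all shared sites, but 85.3% of the 394 shared sites of like WT height had a lower ratio. The better DKO rank went with a lower ES height, for which 5.44% of all shared sites had a lower DKO to WT ratio.

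A second site lay about 7 kb before Cdh2, at -6990 bp in WT and -6978 bp in DKO, with 3 WGATAA and 8 CpGs. It was 1 of 2 shared member sites with the larger deposited height in DKO, at 11.9 against 8.80 in WT, a ratio of 1.35. Its rank was 777 in DKO and 11465 in WT. In intron 1, the site at 28494 bp had a height of 11.0 in WT and 6.48 in DKO, with 2 CpGs and a WGATAA centred 3.5 bp from the WT peak position.

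Near the start site of Cdh2, the peaks at -443 bp (WT, 6.67) and -463 bp (DKO, 5.46) were shared, with 24 CpGs, no WGATAA and 1 E-box. Only the DKO list had a peak in the 5′ UTR, 352 bp after the start site, with a height of 5.82 over 0.439 in ES and 54 CpGs. Only the WT list had the other 9 peaks, all of them in introns 1 and 2, with heights of 5.42 to 8.99, of which 7 held WGATAA. Among them, 2 peaks 133 bp apart in intron 2 have windows that overlap, so they may be 1 site. Of all WT peaks, 45.6% were shared with the DKO list.

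Vim encodes the intermediate filament protein of mesenchymal cells and lies at chr2:13495554-13504453 on the forward strand. All 3 WT peaks of the locus were shared. At the start site, the peak at -265 bp had a height of 8.24 in WT and 5.80 in DKO, and the peak in the first coding exon, 572 bp after the start site in WT, had 9.34 in WT and 8.74 in DKO. Neither held WGATAA, and their enrichments of 3.21 to 3.60 in both lists were near the limit. The exon sequence is shown above.

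The third Vim site was 15192 bp before the gene, in the 3′ UTR annotated for Gm9875. It had a height of 7.94 over 2.08 in ES for WT, rank 16971, and 9.66 over 0.285 in ES for DKO, rank 1613. The positions were 1 bp apart, and the window held 5 CpGs and a WGATAA 16.5 bp from the WT position. It was the other shared member site with the larger deposited height in DKO, with a ratio of 1.22. The ES ratio at the site, 0.137, was among the lowest, with 1.34% of all shared sites lower. The DKO list had 2 further peaks, 29620 and 29298 bp before Vim (5.04 and 9.92), which lie in Trdmt1 and have overlapping windows.

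Across the members, 13 of 32 WT peaks (40.6%, 95% Wilson interval 25.5 to 57.7) were shared with the DKO list, where 45.6% of all WT peaks were. Of the 27 DKO peaks, 12 (44.4%, 27.6 to 62.7) were shared, against 45.1% of all DKO peaks. The intervals cover counting error only, and these shares within 50 kb were near those of all peaks. Within 5 kb, 11 of 29 WT member peaks (37.9%, 22.7 to 56.0) and 10 of 14 DKO member peaks (71.4%, 45.4 to 88.3) were shared. The share over all peaks within 5 kb of a gene was not computed, so these values have no like background. The shared peaks were at Twist2, Zeb2, Cdh2 and Vim, and none was at Snai1, Twist1 or Zeb1.

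At the 12 sites found in both lists, the peak positions were 1 to 112 bp apart, with a median of 15 bp where all shared sites had 25 bp. The median WT height was 8.53 and the median DKO height 8.21. The DKO to WT ratio had a median of 0.831 and ranged from 0.376 to 1.35, and the median over all 8489 shared sites was 0.806. The DKO height was the larger at 2 of the 12 sites, against 28.1% of all shared sites. Since the scaling of heights between the libraries is not given in the sources used here, the ratio is read only against that of all shared sites.

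**Figure D2:**
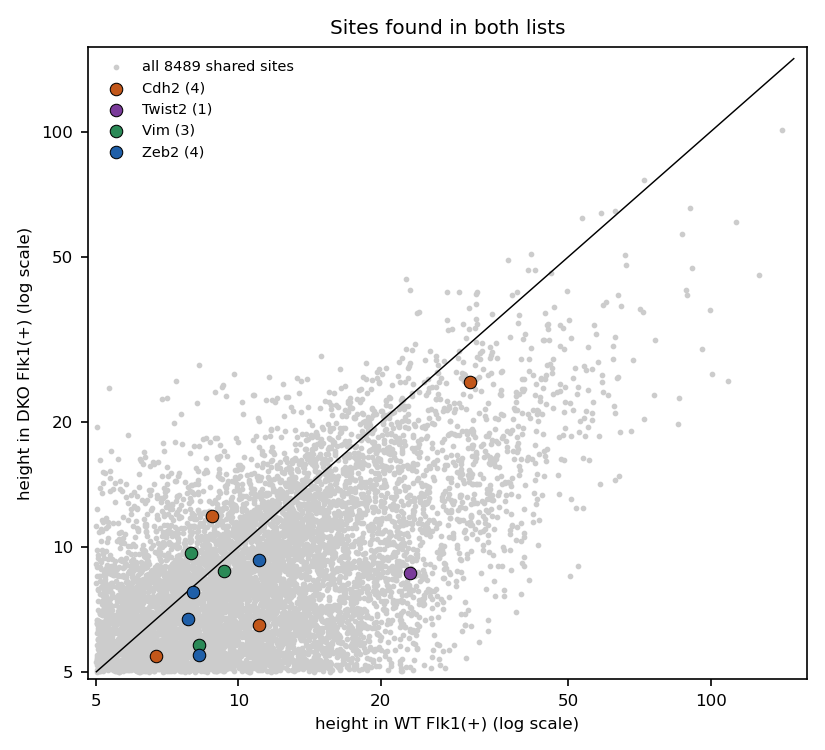
Height in WT Flk1(+) against height in DKO Flk1(+) (both log scales, authors' profile units) at sites found in both lists, with the 12 member sites in colour over all 8489 in grey and a line of equal height. The Twist2 site lies far below the line (ratio 0.376), and a Cdh2 and a Vim site lie above it (1.35 and 1.22).

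The ES height was lower in DKO ES than in WT ES at 11 of the 12 sites, and at 75.7% of all shared sites. The rank, which follows the authors' q-value, was nearer the top of the list in DKO at 6 of the 12 sites, against 55.4% of all shared sites. At 4 of these 6 the Flk1(+) height itself was larger in WT, the intron 2 site of Cdh2 being 1 of them. The part of the ES libraries in the ranks was not tested.

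**Figure D3:**
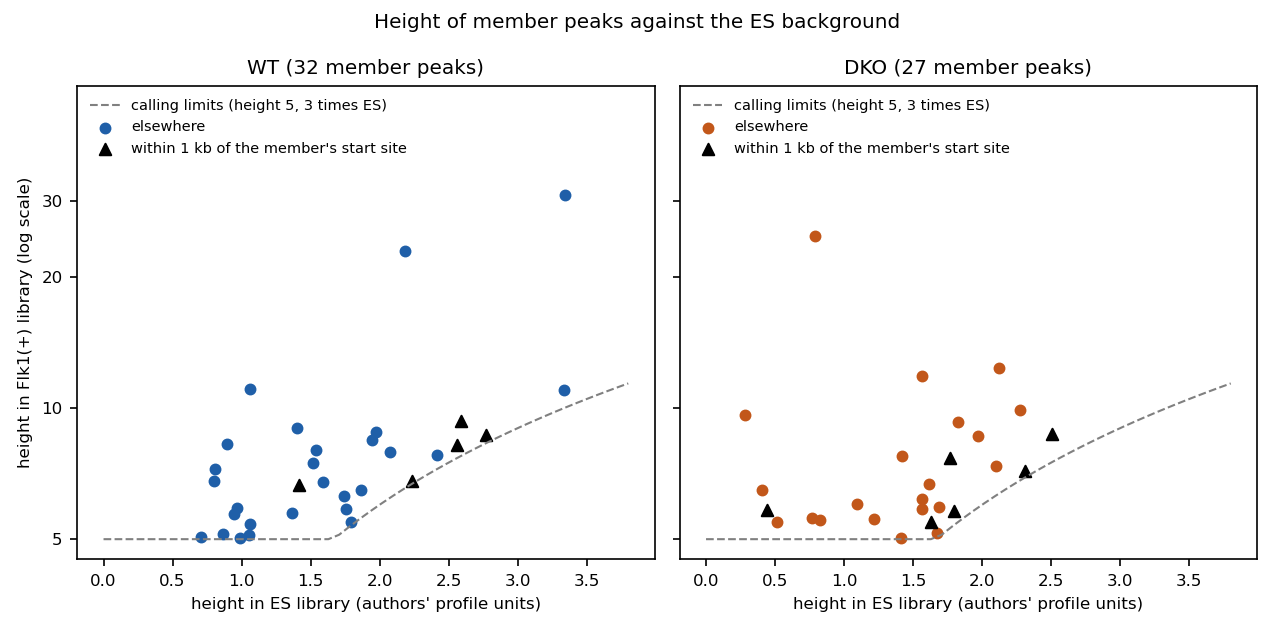
Height of each member peak in the Flk1(+) library (log scale) against the height in the ES library of the same genotype, both in the authors' profile units, with the calling limits as a dashed line. Peaks within 1 kb of a member's start site (triangles) mostly lie near the line, with an enrichment under 4 for 4 of 5 in WT and 4 of 6 in DKO, while the intron 2 peak of Cdh2 stands far above it in both lists. All peaks within 1 kb of a start site, not drawn, had median enrichments of 3.8 in WT and 3.98 in DKO.

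WGATAA was in 19 of the 32 WT member peaks (59.4%, 42.3 to 74.5) and in 10 of the 27 DKO member peaks (37.0%, 21.5 to 55.8). Of all peaks, 61.9% in WT and 38.1% in DKO held it, so the members followed each list. Among the matches in WT member peaks, 13 of 27 were within 50 bp of the peak position, against 46.3% of matches in all WT peaks. Among those in DKO member peaks, 4 of 18 were central, against 42.3%. The E-box CACCTG was in 10 WT member peaks (31.2%) and 7 DKO member peaks (25.9%), with 27.8% and 29.2% over all peaks.

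Peaks near start sites differed from the rest in both lists. Within 1 kb of the start site of any protein-coding gene there were 6 WT member peaks, of which 1 held WGATAA, against 21.2% of all such WT peaks. The DKO list had 10, of which 1 held it, against 14.1%. Farther away, 18 of 26 WT member peaks held WGATAA (69.2%) and 9 of 17 DKO member peaks (52.9%), with 75.5% and 57.9% over all such peaks. The 1 peak with the motif near a start site is the same Gm9875 site upstream of Vim in both lists.

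At the start sites of the members themselves, 5 WT peaks at 3 members and 6 DKO peaks at 4 members lay within 1 kb. None held WGATAA. Their enrichments over ES were 3.05 to 4.71 in WT and 3.10 to 5.82 in DKO, 4 in each list being under 4. The best of them stood 39.6% of the way down the ranked list in WT and 45.0% in DKO. The best-ranked member peaks in both lists were in introns or upstream instead. Low values near start sites were not particular to the members. All peaks within 1 kb of a start site had median enrichments of 3.8 in WT and 3.98 in DKO. Their median place in the ranked list was 59.8% in WT and 53.2% in DKO.

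Member peaks in WT had a median of 8.5 CpGs per window, close to the 8 of all WT peaks. Those in DKO had a median of 16, and all DKO peaks had 21. By place, the median of member peaks was 30.5 CpGs near start sites in WT and 36 in DKO, and 8 and 9 elsewhere. Over all peaks it was 36 in WT and 38 in DKO near start sites, and 6 and 8 elsewhere.

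**Figure D4:**
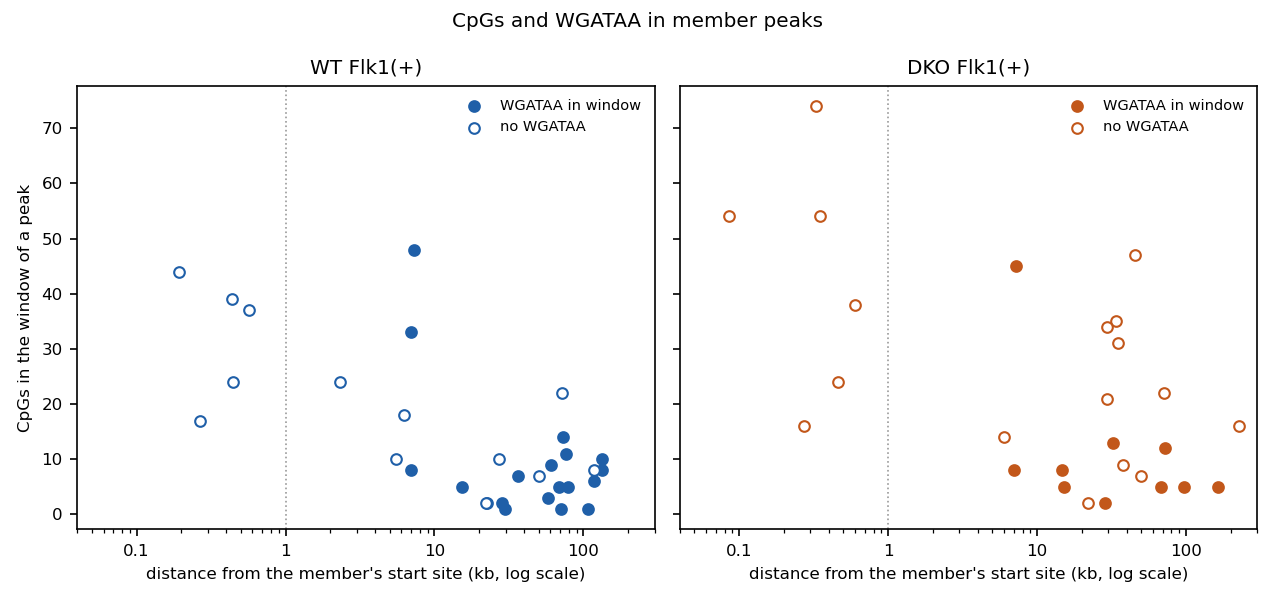
CpGs in the window of each member peak against its distance from the member's start site (kb, log scale), for WT Flk1(+) and DKO Flk1(+), with filled points holding WGATAA. No peak within 1 kb of the start site (dotted line) holds WGATAA. The peaks with over 30 CpGs beyond 5 kb are at or near a 5′ UTR exon of Zeb2 and, in DKO, at Rnf114 and Trdmt1.

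The other genes of the pathway were taken from a list of 86 in 6 roles. A peak within 5 kb was found at 51 of them (59.3%) in WT and at 51 in DKO, at 40 in both lists and at 24 in neither, with the 39.4% and 49.1% of protein-coding genes as background. Ligands and receptors had a peak at 14 of 18 genes in WT and 12 in DKO, and signal transducers at 7 of 10 and 9. The other transcription factors of the transition had one at 11 of 16 in each list, and mesenchymal effectors at 8 of 16 in each. Epithelial genes that these factors repress had a peak at 7 of 11 in WT and 8 in DKO, and the guardians of the epithelial state, such as the Grhl and Ovol factors and the miR-200 family, at 4 of 15 and 3. The list includes microRNA genes, which the share of protein-coding genes does not cover.

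Heights of these genes are those of the highest peak within 5 kb of a gene in each list, which is not always the same site. Genes were named because their peak is among the 3 highest of their role in a list, so the heights in WT and DKO are not an unselected comparison. Shared sites with a WT height within 20% of 23.0 had a median DKO to WT ratio of 0.505. Within 20% of 30.9 it was 0.471. The highest peaks at inducers of the transition were in WT at Wnt3, which is needed to form the primitive streak (23.0, rank 222), and at Lef1, a partner of beta-catenin (18.0). In the DKO list they were 7.15 and 6.76, with the Lef1 peak at a different site. Eomes and Mesp1, T-box and basic helix-loop-helix factors of early mesoderm, had 19.6 and 17.8 in WT (ranks 392 and 515) and 8.32 and 6.31 in DKO (ranks 2724 and 7587). Notch1 (12.5, rank 667) and Tcf3 (12.3, rank 16457) had peaks in the DKO list and none in the WT list within 5 kb.

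Fgf8, a ligand of the primitive streak, had 10.7 in WT (rank 18079) and 13.0 in DKO (rank 5438) at different sites. Rela, a subunit of NF-kappaB, had 6.37 (rank 9150) and 11.2 (rank 9012).

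Genes that the member factors repress were also among those with high peaks, though a high peak was not always a well-ranked one. Krt18, a keratin of simple epithelia, had 34.9 in WT (rank 3830) and 17.1 in DKO (rank 6221), at different positions. Dsp, which encodes desmoplakin, had 28.2 (rank 2944) and 13.0 (rank 581). Cdh1, the E-cadherin gene, had 20.7 in WT (rank 2881) and 6.08 in DKO (rank 8712), at different positions. Of the mesenchymal effectors, Cd44 had a shared peak with 14.3 in WT (rank 9498) and 12.3 in DKO (rank 687). Sparc had 15.8 (rank 7080) and 8.98 (rank 19023) at different positions. Grhl3 and Grhl2, which hold cells in the epithelial state, had 17.9 and 17.6 in WT (ranks 1665 and 3873). In DKO they had 7.79 and 8.96 (ranks 10977 and 15142). Esrp2, an epithelial splicing factor, had 15.1 (rank 8256) in the DKO list only.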

How the data were processed

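Gata4 ChIP-seq peaks of WT Flk1(+) and DKO Flk1(+) cells were taken from the 2 lists the authors deposited, with the matching ES library as background. Reads were mapped to mm9 (NCBI v37), with CASAVA 1.8.1 and cutadapt named in the submitters' processing notes, and peaks were called with DNAnexus tools. The aligner and the scaling of heights are not given in the sources used here. Per the file headers, each peak has a signal, which is its height in the Flk1(+) and in the ES profile made by the authors, an enrichment ratio of the authors, the deposited −log10 of the q-value, and a rank, used here as the deposited score. The lists give no column that names a library, and each was assigned to its genotype by its number of peaks. Start and end of peaks are not in the lists, so the deposited windows of 250 bases on either side of each position were used. All windows (100%) equal mm9.

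Genes were those of GENCODE vM1 on mm9, with the longest entry per symbol. A peak was shared where a peak of the other list lay within 500 bp, and sites for height ratios were mutual nearest pairs. Motifs were searched on both strands of the window. Shares carry 95% Wilson intervals, which cover counting error only. The members, the lists of other genes and the descriptions were chosen with earlier results of these data known. All 8 members are named with every peak within 50 kb, and other genes where a member peak lies in or nearest to them, or where their peak is among the 3 highest of their role in a list. An item that this rule covers is left out here. Alternatives were other distances, a stricter score, other definitions of sharing, a wider motif, a narrower window and scaled heights. The overlap, distance and motif steps were tested on simulated data. Python 3.11.15, NumPy 2.4.6, pandas 2.3.3, SciPy 1.17.1 and Matplotlib 3.10.9 were used.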

Additional observations from a re-analysis of the deposited data

How the results depend on the processing

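Of 45 alternative values, 36 stayed within the limits set for a change and 9 did not. With only the better-scoring part of each list (the upper 50%), which holds fewer peaks by construction, 3 members in place of 6 had a WT peak within 5 kb (37.5%, against 22.2% of protein-coding genes) and 3 within 50 kb (against 47.1%, so below all genes), 3 in place of 6 had a DKO peak within 5 kb (against 32.5%), and 12 WT and 14 DKO peaks remained of 32 and 27. The median number of CpGs of DKO member peaks was then 7.5 in place of 16, and the cause was not tested. Counted from the start site alone, 3 members had a WT peak within 5 kb. With heights divided by the median of all shared sites in the same list, the median DKO to WT ratio of the member sites was 1.1 in place of 0.831, so whether these sites are lower in DKO depends on the scaling. Within 50 kb, 77 in place of 51 of the other 86 genes had a DKO peak, as a wider distance takes in more peaks. No paired analysis was possible because each condition has 1 library. Without replicates, and with read depth not adjusted for here, neither the error of a height nor the difference behind a peak found in 1 list only can be given.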

Other observations

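RefSeq promoter sequences (250 bases before to 50 after a start site, GRCm38.p6) were matched by symbol for 5 of the 8 members, Snai1, Twist1, Twist2, Zeb2 and Vim, with 4 promoters for Zeb2. None of these 8 promoters held WGATAA, where 18.6% of all 32851 promoters did. On mm9, the sequence 250 bases on either side of the Zeb2 start site held 1 match, and those of the other members held none. The median number of CpGs was 15 per promoter for the members, with each of the 4 Zeb2 promoters counted, and 7 for all. The promoters of Zeb2 held from 8 to 19 CpGs, and the most were the 34 in that of Snai1.

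WGATAA was common outside peaks at every member. The windows of 50 kb around the genes held from 74 matches at Snai1 to 507 at Cdh2, and peak windows covered at most 2.76% of them in WT (Cdh2) and 4.05% in DKO (Snai1). Per 10 kb, Snai1 had 7.07 matches and Twist2 9.76, fewer than the other members, which had 14.2 to 16.7.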
